A study of Mus musculus with 165 samples.

Results

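PUER cells, a myeloid progenitor line in which PU.1 is made active with 4-hydroxytamoxifen (OHT), were compared at 48h of OHT treatment in granulocyte colony-stimulating factor (GCSF-OHT 48h) and in interleukin 3 (IL3-OHT 48h). The libraries were taken by their titles, 3 in each condition, and these 6 make up 3.64% of the RNA-seq libraries of the series. PUER cells descend from mice that lack PU.1 (*Spi1* -/-), with both fetal liver and bone marrow named in the study's text as their source, and carry a fusion of PU.1 with the part of the estrogen receptor that binds hormone. OHT releases this fusion in cells that otherwise have no PU.1. All 6 libraries came from this 1 mouse line, and its replicates are cultures of that line and not separate animals, so that every p-value measures the spread between such cultures.

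The groups differed in more than the cytokine. In the IL3-OHT arm the cells stayed in 5 ng/mL IL3 and received 200 nM OHT. For the GCSF-OHT arm IL3 was exchanged for 10 ng/mL GCSF 48 h before OHT, and 100 nM OHT was then given. Cytokine, OHT dose and the 48 h of prior culture cannot be told apart in this comparison. At 40h part of the medium was exchanged in both arms and fresh OHT was given. The adherent cells of the 48h time point were detached with trypsin. The reference before OHT was GCSF 0h, after 48 h in GCSF, and undifferentiated IL3 0h, again with 3 libraries each. The study also uses these undifferentiated libraries as the start of the GCSF course, before the 48 h in GCSF. The 0h contrast can therefore include washing, reseeding and time in culture beside the cytokine. The titles of the GCSF 0h libraries name OHT, whereas their description and the protocol place them before its addition. Trypsin was used only at times after 24h, so handling and time cannot be told apart in the contrasts of 48h with 0h or 12h. Each time point also had its own culture plate, so plate and time cannot be told apart in any contrast between times. The p-values of such contrasts do not include the spread between plates.

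IL3 and GCSF are both growth factors of the myeloid lineage, but their receptors differ. The IL3 receptor pairs a specific alpha chain with the beta common chain and signals mostly through JAK2, STAT5 and the RAS-ERK cascade. The GCSF receptor, encoded by *Csf3r*, is a homodimer best known for STAT3 and for driving granulopoiesis. PU.1 is required for both macrophages and neutrophils, and neutrophil precursors fill primary, then secondary and tertiary granules with distinct sets of proteins.

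The values are DESeq2-normalized counts deposited by the study. The 48h libraries held 26.8 to 28.3 M reads on genes in GCSF-OHT and 25.6 to 27.8 M in IL3-OHT. At that depth, 1 read was worth 0.731 to 0.835 normalized counts and the floor of 3 reads lay at 2.19 to 2.51 normalized counts. Between replicates of a group the log2 values correlated at 0.993 or more across genes, and no pair agreed within sampling noise. *Spi1*, whose counts cannot separate the fusion from other sources, had 9226, 9007 and 9358 normalized counts in GCSF-OHT and 7089, 6651 and 6970.2 in IL3-OHT, a log2 difference of 0.41 ± 0.05 that stayed under the threshold for a differentially expressed gene (DEG). To count as a DEG, a gene had to pass 0.05 in adjusted p and differ by more than 0.58 on the log2 scale in either direction.

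Of 17414 genes tested at 48h, 1031 (5.92%) were higher in GCSF-OHT and 1347 (7.74%) were lower than in IL3-OHT. The lower genes had the larger differences. Among the DEGs, 770 lower and 432 higher genes passed a log2 fold change of 1, and 55 lower and 16 higher genes passed 3. The 3 libraries of 1 condition lay wholly above those of the other in 8715 genes (50.0%), DEG or not. Counts are given below for 33 gene lists, and each should be read against these shares. Since RNA was pooled over all cells of a culture, fewer cells of a type and less RNA per cell cannot be told apart.

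**Figure D1:**
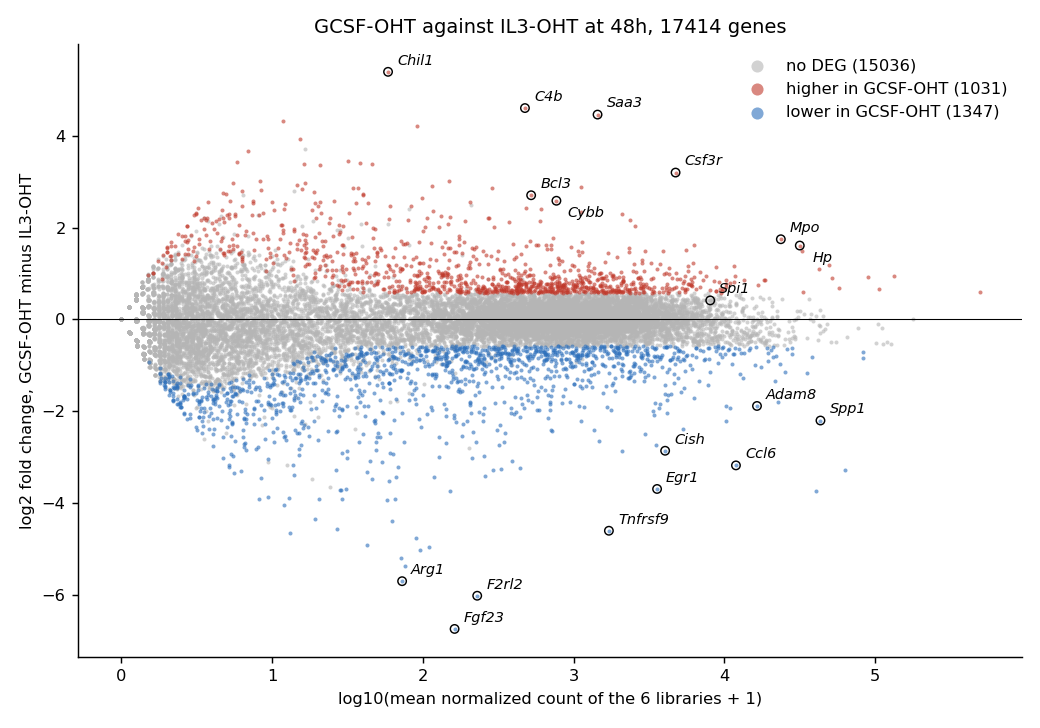
Each point is a gene, with log10 of the mean normalized count of the 6 libraries plus 1 on the x axis and the log2 fold change of GCSF-OHT over IL3-OHT on the y axis. The 1031 higher DEGs are red, the 1347 lower DEGs blue, and the lower side reaches further, to -6.73 for *Fgf23* against 5.39 for *Chil1*.

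*Chil1*, *C4b* and *Saa3*, the genes with the largest excess in GCSF-OHT, encode secreted or granule proteins, and genes of other kinds followed. *Chil1*, which encodes a chitinase-like protein of neutrophil secondary granules and lies on chromosome 1 at 134182176-134190181 (GRCm38), had 91.5, 117.3 and 132.3 normalized counts in the GCSF-OHT libraries and 1.67, 3.10 and 0.820 in the IL3-OHT libraries. The latter were 1 to 4 reads a library, so the log2 fold change of 5.39 ± 0.51 (limma, adjusted p = 4.7e-17) rests on a near-absent IL3 level. *C4b*, complement component 4B, had 1024, 641.8 and 1072 against 29.2, 43.4 and 36.1 (log2 fold change 4.60 ± 0.22, adjusted p = 8.3e-39). Its counts are uncertain to the extent that reads are shared with the near-identical neighbour *C4a*. *Saa3*, an acute-phase serum amyloid, had 2809, 2526 and 2928 against 133.6, 131.7 and 109.00 (log2 fold change 4.46 ± 0.15, adjusted p = 4.4e-52). For each of these genes the lowest GCSF-OHT library stood many times above the highest IL3-OHT library. *Lbp*, which encodes the lipopolysaccharide-binding protein of the acute phase, had 2033, 1834 and 1991 against 303.1, 261.1 and 236.8 (log2 fold change 2.87 ± 0.08). The adhesion molecule gene *Mcam* (3.01 ± 0.16), the histidine decarboxylase gene *Hdc* (2.85 ± 0.21) and *Baiap3* (2.63 ± 0.22) completed this side, with 5 further genes that are described with their groups.

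The largest deficits in GCSF-OHT were in a growth factor, a protease receptor and an arginine-degrading enzyme. *Fgf23*, a hormone of phosphate balance in its usual setting, had 3.88, 2.24 and 0.731 normalized counts in GCSF-OHT and 354.9, 297.5 and 308.97 in IL3-OHT (log2 fold change -6.73 ± 0.45, adjusted p = 1.5e-26). *F2rl2*, a receptor cleaved by thrombin, had 6.98, 8.22 and 3.66 against 449.3, 429.2 and 472.9 (log2 fold change -6.01 ± 0.27). *Arg1*, arginase 1, had 0.775, 3.74 and 1.46 against 125.3, 143.3 and 156.5 (log2 fold change -5.69 ± 0.45). In GCSF-OHT 1 library each of *Fgf23* and *Arg1* held a single read, under the floor, and the other libraries of these 3 genes held few reads, while the IL3-OHT libraries of all 3 lay far above it. *Tnfrsf9*, which encodes the costimulatory receptor 4-1BB, was well counted on both sides, with 134.9, 159.1 and 113.3 against 2987, 3656 and 3225 (log2 fold change -4.60 ± 0.14, adjusted p = 7.3e-58). The resistin-like *Retnla* (-3.93 ± 0.47), the TIE2 ligand *Angpt1* (-3.90 ± 0.39), *Plet1* (-4.75 ± 0.42), *Rnf183* (-4.38 ± 0.45) and the multicopy deubiquitinase *Usp17ld* (-4.94 ± 0.34) were also among the lowest. *Gm7332* was among the lowest 12, but its IL3-OHT libraries spread over 133.6, 74.4 and 181.1 and its GCSF-OHT libraries over 36.4, 0 and 0, so the predicted gene has no stable level in either condition. *Csn2* (beta-casein) and *Ccn3* (a matricellular protein), named here after their values were seen for their high level in IL3-OHT, had means of 11663 and 5702 in GCSF-OHT against 113571 and 75489 in IL3-OHT, log2 fold changes of -3.29 ± 0.09 and -3.74 ± 0.07.

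Because several groups described next share known regulators, the promoters of 4 of their members are shown first, as RefSeq gives them in GRCm38.p6. Each window runs 5′ to 3′ from 250 bases before the transcription start to 30 after it, in lower case with the searched motif in capitals. *Cish* and *Bcl6* are STAT targets that moved in opposite directions, *Ifit1* led the interferon-stimulated genes and *Saa3* is the acute-phase gene above. The motifs searched on both strands were TTCNNNGAA (STAT) in *Cish* and *Bcl6*, the interferon response element (GAAA, any 2 bases, GAAA) in *Ifit1* and TTGCNNAA (C/EBP) in *Saa3*. No match of 1 motif overlapped a match of another in these windows.
Cish, chr9:107296409-107296688, plus strand: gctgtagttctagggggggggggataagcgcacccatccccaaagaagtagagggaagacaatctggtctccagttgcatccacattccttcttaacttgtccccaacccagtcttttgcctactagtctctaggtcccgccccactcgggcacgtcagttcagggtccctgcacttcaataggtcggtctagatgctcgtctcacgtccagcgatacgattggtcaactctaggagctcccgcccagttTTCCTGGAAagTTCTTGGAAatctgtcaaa
Bcl6, chr16:23988823-23989102, minus strand: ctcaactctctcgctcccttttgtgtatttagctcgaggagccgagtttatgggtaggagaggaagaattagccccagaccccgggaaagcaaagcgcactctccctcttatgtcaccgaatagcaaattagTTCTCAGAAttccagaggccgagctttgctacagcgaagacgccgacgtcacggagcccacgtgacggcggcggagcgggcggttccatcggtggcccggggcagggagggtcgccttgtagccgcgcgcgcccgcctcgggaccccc
Ifit1, chr19:34640639-34640918, plus strand: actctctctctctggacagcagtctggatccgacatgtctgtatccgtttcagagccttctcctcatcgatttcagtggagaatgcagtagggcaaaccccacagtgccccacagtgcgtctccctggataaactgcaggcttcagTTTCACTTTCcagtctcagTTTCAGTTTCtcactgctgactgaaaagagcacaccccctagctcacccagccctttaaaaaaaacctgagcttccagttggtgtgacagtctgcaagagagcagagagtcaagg
Saa3, chr7:46715647-46715926, minus strand: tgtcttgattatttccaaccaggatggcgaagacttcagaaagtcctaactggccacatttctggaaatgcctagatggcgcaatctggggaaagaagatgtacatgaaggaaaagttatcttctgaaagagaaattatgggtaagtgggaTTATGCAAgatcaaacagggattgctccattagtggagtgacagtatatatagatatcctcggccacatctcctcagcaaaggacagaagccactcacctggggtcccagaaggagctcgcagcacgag

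*Cish* held 2 STAT matches that lie side by side from 0 to 19 bases after the start, and *Bcl6* held 1 that ended 110 bases before it. *Ifit1* held 2 interferon response matches between 104 and 76 bases before the start, and *Saa3* 1 C/EBP match between 99 and 92 bases before it. The *Saa3* window also held 1 match of the interferon response motif, which is left in lower case. Such matches are short and common. The STAT motif was in 8.30% of 32851 RefSeq windows of 300 bases, the C/EBP motif in 10.8% and the interferon response motif in 3.44%. Windows were found for 1731 of the 2378 DEGs. The interferon response motif was in 58 of 772 higher DEGs with a window (7.51%), 38 of 959 lower ones (3.96%) and 3.55% of the genes that were no DEG. The C/EBP motif was in 14.1%, 12.5% and 10.2% of the same groups, and the STAT motif in 9.59%, 8.13% and 8.34%. Of the tested STAT feedback and target genes with a window, 3 of 17 held the STAT motif (17.65%). Of the secondary and tertiary granule genes with one, 11 of 27 held the C/EBP motif (40.74%). These shares describe letters in windows and were not tested.

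The receptor of the supplied cytokine was the clearest member of the receptor list. *Csf3r* had 8863, 8262 and 8519 normalized counts in GCSF-OHT and 1020.5, 847.5 and 935.9 in IL3-OHT, a log2 fold change of 3.20 ± 0.06 (adjusted p = 2.6e-75). The IL3 side of the pair did not mirror it. *Il3ra*, the IL3 receptor alpha chain, had 848.8, 846.5 and 945.2 against 958.7, 876.9 and 879.4 with overlapping groups (log2 fold change -0.04 ± 0.13, adjusted p = 0.85). The beta chains *Csf2rb* (0.18 ± 0.04) and *Csf2rb2* (-0.05 ± 0.05) were no DEGs either. *Il1r2*, the decoy receptor for interleukin 1, had 829.4, 1029.5 and 784.4 against 283.1, 289.7 and 273.7 (log2 fold change 1.63 ± 0.14). In all, 3 of 25 cytokine receptor genes were higher and 1 was lower, the last being *Il10ra*, which had no read in GCSF-OHT and a mean of 3.25 in IL3-OHT.

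The STAT feedback genes split into opposite groups. Of 24 tested, 7 were lower and 5 higher in GCSF-OHT. *Socs1*, a suppressor of JAK kinases, had 60.5, 59.8 and 62.1 normalized counts against 607.1, 573.2 and 595.8 (log2 fold change -3.26 ± 0.18, adjusted p = 9.3e-34). *Cish*, the classic STAT5-induced suppressor whose promoter is printed above, had 1010.0, 1025 and 906.4 against 7299, 6675 and 7339 (log2 fold change -2.86 ± 0.08, adjusted p = 2.4e-60). *Socs2* (-1.96 ± 0.08) and the cytokine gene *Osm* (-2.29 ± 0.13) were lower as well. None of these 4 overlapped between conditions, nor did 50.0% of all genes tested. On the other side stood *Bcl3*, an atypical inhibitor of NF-kB induced by STAT3, with 923.97, 832.3 and 958.3 against 137.8, 127.8 and 149.2 (log2 fold change 2.70 ± 0.15, adjusted p = 1.5e-32). *Bcl6*, a transcriptional repressor, had 1012, 1058 and 997.8 against 189.6, 181.3 and 203.2 (log2 fold change 2.41 ± 0.09, adjusted p = 3.6e-47). *Stat3* itself was higher by 1.22 ± 0.04, with 4688, 4339 and 4565 against 1917, 1941 and 1952. The kinase gene *Pim1*, a target of both factors, had 16785, 16154 and 16385 against 17582, 15469 and 16301 and a difference of 0.00 ± 0.08.

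**Figure D2:**
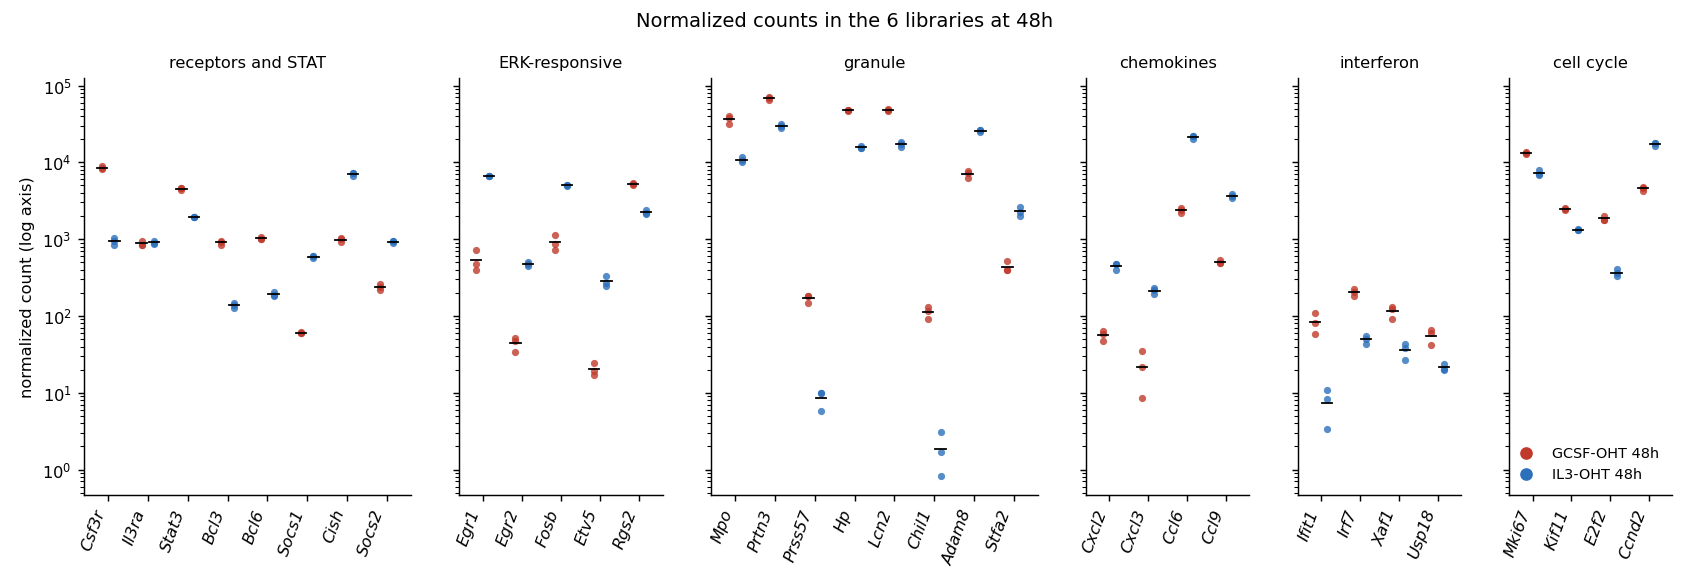
Normalized counts on a log axis in each of the 3 GCSF-OHT 48h (red) and 3 IL3-OHT 48h (blue) libraries, with a black bar at the mean, for genes of 6 groups. The conditions do not overlap for any gene shown except *Il3ra*, which holds for 50.0% of all genes tested. Replicates spread most for *Cxcl3*, *Chil1* and *Ifit1*.

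Genes that answer to ERK were the most uniformly lower list. Of 36 immediate-early and feedback genes tested, 23 were lower in GCSF-OHT and 1 was higher, with a median log2 fold change of -0.97 where the median of all genes was -0.02. *Egr1*, an immediate-early zinc-finger factor, had 479.04, 716.5 and 392.5 normalized counts in GCSF-OHT and 6604, 6677 and 6578 in IL3-OHT (log2 fold change -3.69 ± 0.18, adjusted p = 5.5e-38). *Egr2* had 34.1, 51.6 and 46.8 against 498.5, 473.3 and 441.7 (-3.41 ± 0.22). The AP-1 gene *Fosb* had 875.9, 1126 and 717.8 against 5066, 4931 and 4994 (-2.49 ± 0.18). Cells of both conditions were trypsinized at 48h. At 24h, before trypsin was used, *Fosb* had means of 34.4 in GCSF-OHT and 61.1 in IL3-OHT, and at 32h, the first time with trypsin, of 1265 and 4994. The part of trypsin in these levels was not tested. At 12h, without trypsin, 18 of the 36 genes were lower and 1 was higher. At 48h the IL3-OHT libraries of *Egr1*, *Egr2* and *Fosb* were close together and the GCSF-OHT libraries were more spread. *Etv5*, an ETS factor induced by ERK, was lower (-3.73 ± 0.29). The exception was *Rgs2*, a regulator of G-protein signaling, with 5272, 5355 and 5035 against 2205, 2415 and 2146 (1.21 ± 0.08). *Fosl2* (0.30 ± 0.08), *Srf* (0.04 ± 0.10) and *Nab2* (-0.29 ± 0.12) were well counted and no DEGs.

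Among myeloid transcription factors 5 of 29 were higher and 5 lower. Factors of the granulocyte program made up most of the first group. *Gfi1*, a repressor required for neutrophils, had 5892, 5640.0 and 6138 normalized counts in GCSF-OHT and 3383, 3013 and 3018 in IL3-OHT (log2 fold change 0.91 ± 0.06, adjusted p = 3.4e-27). *Cebpa*, the master factor of granulocyte commitment, had 20690.1, 19651 and 22023 against 13703, 11217 and 12191 (0.75 ± 0.13), and *Cebpe*, the factor of secondary granules, was higher by 0.66 ± 0.10. *Ets1* (0.88 ± 0.04) and the clock gene *Per3* (1.06 ± 0.07) completed it. The lower group held, beside the sparse *Batf3* with means of 1.03 in GCSF-OHT and 9.94 in IL3-OHT, factors known from macrophages and osteoclasts. *Pparg*, the lipid-sensing nuclear receptor of alveolar macrophages, had 836.4, 1009 and 800.4 against 2381, 2345 and 2424 (-1.44 ± 0.09, adjusted p = 3.7e-30). The MiT family genes *Tfec* (-1.01 ± 0.06) and *Mitf* (-0.87 ± 0.09) were lower together, as was *Klf6* (-0.81 ± 0.05). *Cebpb* (-0.27 ± 0.15) and *Cebpd* (0.43 ± 0.10) were no DEGs. Of 16 progenitor and other-lineage factors, *Hlf* (1.20 ± 0.11) and *Lyl1* (1.01 ± 0.09) were higher and 2 were lower, among them *Ikzf2* (-0.91 ± 0.11).

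Granule genes were higher in GCSF-OHT in large part. Of 15 primary granule genes 7 were higher (46.7%) and 0 lower. *Mpo*, myeloperoxidase, had 37909.9, 31498 and 40029.8 normalized counts against 11705, 10096 and 10743 (log2 fold change 1.74 ± 0.10, adjusted p = 1.7e-30). *Prtn3*, proteinase 3, had 69818, 65357 and 70090.1 against 31552, 28209 and 29969.7 (1.19 ± 0.07). *Prss57*, another serine protease of these granules, was sparse in IL3-OHT, with 182.9, 148.7 and 184.2 against 5.85, 10.1 and 9.83 (4.20 ± 0.45), and *Nkg7*, a membrane protein of cytolytic granules, followed with 2.90 ± 0.30. *Calr* (-0.36 ± 0.04), *Srgn* (-0.50 ± 0.05) and *Cd63* (-0.06 ± 0.04), which are made by many cell types, were no DEGs.

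Secondary and tertiary granule genes were higher in 19 of 33 (57.6%) and lower in 4. *Hp*, haptoglobin, had 48636, 46298 and 47832 normalized counts against 16075, 15519 and 15258 (log2 fold change 1.61 ± 0.04, adjusted p = 6.3e-63). *Lcn2*, the siderophore-binding lipocalin, had 47540.3, 49432 and 47278 against 15802, 18590.0 and 17262 (1.48 ± 0.08). *Ltb4r1*, the leukotriene B4 receptor, had 342.6, 278.7 and 305.6 against 74.3, 73.6 and 59.8 (2.14 ± 0.16). The antimicrobial *Camp* (0.91 ± 0.08) and *Ngp* (0.85 ± 0.07) were higher too. The 4 lower members were *Arg1*, the metalloprotease gene *Adam8* with 7304, 7633 and 6173 against 24754, 26472 and 26315 (-1.88 ± 0.09), and the stefins *Stfa2* (-2.41 ± 0.12) and *Stfa3* (-0.99 ± 0.11), a cluster of near-identical genes among which reads may be divided. *Ltf*, lactoferrin, was low in both conditions at means of 56.3 and 60.2 and was no DEG. *Ly6g*, the surface marker of mature mouse neutrophils, was lower still, at means of 8.70 and 7.86.

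The calprotectin genes and the oxidase added to this picture unequally. *S100a9* had 175450.4, 175496 and 176544 normalized counts against 91518, 94770.4 and 89098 (0.94 ± 0.07) and *S100a8* was higher by 0.66 ± 0.09, the only 2 of 17 S100 and annexin genes that were higher. Together they took 1.45 to 1.52% of reads in GCSF-OHT and 0.782 to 0.851% in IL3-OHT. Another 5 of the list were lower, *S100a10* (-1.91 ± 0.08), *Anxa4* (-1.14 ± 0.05), *Anxa5* (-0.86 ± 0.06) and *S100a6* (-0.75 ± 0.06) foremost. Of the 7 NADPH oxidase genes, 3 were higher and 4 were no DEGs. *Cybb*, the catalytic subunit gp91phox, had 1316, 1372 and 1261 against 216.3, 206.1 and 235.2 (2.58 ± 0.21, adjusted p = 5.5e-21), *Ncf4* had 386.02, 280.9 and 380.9 against 45.1, 58.9 and 74.6 (2.55 ± 0.19) and *Rac2* was higher by 0.67 ± 0.07. The partner subunit *Cyba* (-0.03 ± 0.06), the organizer *Ncf1* (0.35 ± 0.05) and *Rac1* (-0.07 ± 0.04) differed by less.

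Monocyte and macrophage markers went the other way more often, with 15 of 34 lower (44.1%) and 5 higher. *Msr1*, a scavenger receptor, had 65.1, 70.2 and 53.4 normalized counts against 305.6, 323.03 and 286.02 (log2 fold change -2.27 ± 0.36). *Mmp12*, macrophage elastase, had 7.75, 11.2 and 7.31 against 101.05, 116.2 and 107.4 (-3.50 ± 0.44), and *Mmp13* was lower (-2.68 ± 0.21). *Mrc1*, the mannose receptor, had 1.55, 4.48 and 2.19 against 40.9, 62.7 and 55.7 (-3.91 ± 0.51). The lipopolysaccharide co-receptor *Cd14* had 3808, 3869 and 3821 against 9710.4, 9731 and 9491 (-1.33 ± 0.06). Not all monocyte genes were lower. *Treml4* (1.69 ± 0.17), *F13a1* (0.88 ± 0.12) and *Cd36* (0.70 ± 0.27) were higher, and *Ly6c2* (-0.15 ± 0.08), *Cx3cr1* (0.12 ± 0.07) and *Ccr2* (0.45 ± 0.15) were no DEGs. *Csf1r*, the receptor that defines the macrophage lineage, was low in both conditions, with means of 39.05 in GCSF-OHT and 18.1 in IL3-OHT, and higher by 1.03 ± 0.43. The call of *Csf1r* was lost without GCSF-OHT replicate 3 (0.74), and that of *Cd36* without GCSF-OHT replicate 2 (0.51). Without IL3-OHT replicate 3 the list had 3 higher genes. The summed level of the list was 71350 to 79210 in GCSF-OHT and 155597 to 171933 in IL3-OHT.

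**Figure D3:**
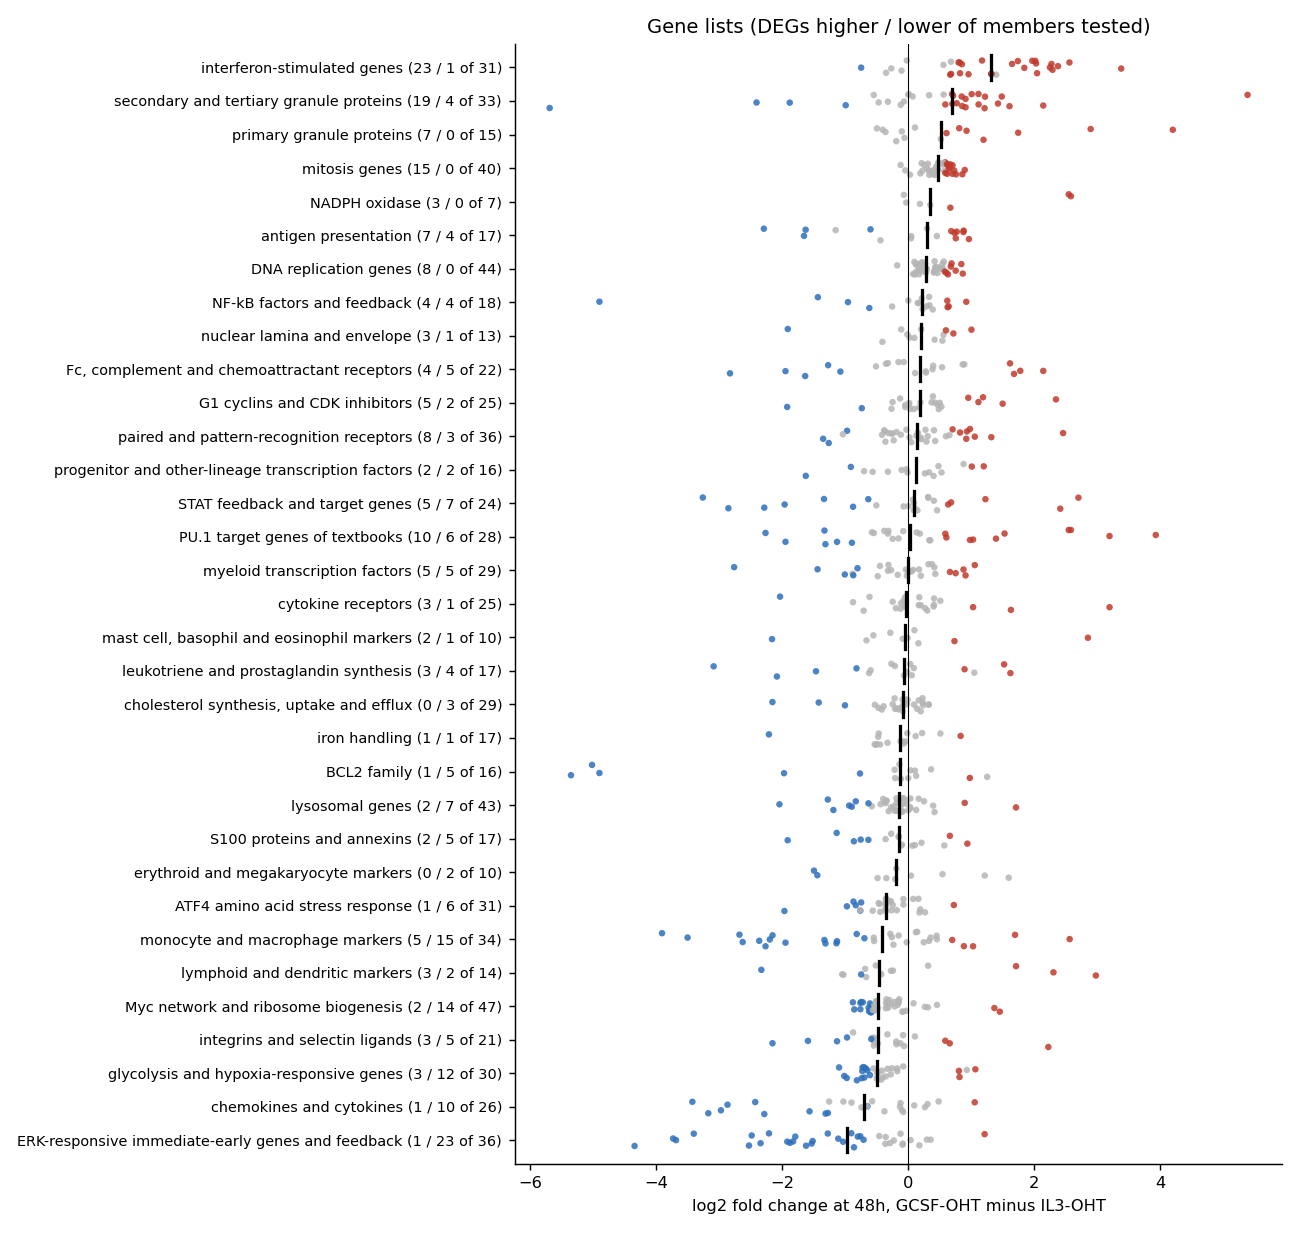
Log2 fold change of GCSF-OHT over IL3-OHT at 48h for every tested member of the 33 lists, red for DEGs that were higher, blue for those that were lower and grey for the rest, with a black bar at the list median. The lists run from interferon-stimulated genes at the top, 23 of 31 higher, to ERK-responsive genes at the bottom, 23 of 36 lower.

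Textbook target genes of PU.1 did not share a direction. Of 28, 10 were higher and 6 lower in GCSF-OHT, with a median log2 fold change of 0.03. The higher genes included *Csf3r*, *Cybb* and *Ncf4*. The lower genes included *Msr1*, *Cd14*, *Cd68* (-1.32 ± 0.09) and *Itgam* (-1.13 ± 0.06). *Ptprc*, which encodes the pan-leukocyte phosphatase CD45, had 962.7, 963.8 and 1022 normalized counts against 317.3, 367.96 and 336.01 (1.53 ± 0.25).

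Markers of other lineages were sparse. The 10 tested mast cell, basophil and eosinophil markers summed to 728 to 842 normalized counts in GCSF-OHT and 262 to 326 in IL3-OHT, of which *Hdc* made up 503.2 and 68.7 on average, and 16 members of that list had 3 reads or fewer in every 48h library. Among them 2 were higher, the second being the basophil protease *Mcpt8* (0.73 ± 0.15), and 1 was lower. Of 10 erythroid and megakaryocyte markers, *Vwf* (-1.44 ± 0.12) and *Gp1bb* (-1.50 ± 0.58) were lower, the second of which was no DEG without GCSF-OHT replicate 3 (-1.30), and the sum was 549 to 761 against 1319 to 1519. Lymphoid and dendritic markers gave 3 higher and 2 lower of 14, all 3 higher ones with means under 50. Whether a minority of other cells contributed to any list was not tested.

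Surface receptors for chemotaxis and recognition changed in both directions. Of 22 Fc, complement and chemoattractant receptors 4 were higher and 5 lower. *Cxcr2*, the receptor by which neutrophils follow CXC chemokines, had 924.7, 1103 and 922.5 normalized counts against 294.8, 344.7 and 319.6 (1.62 ± 0.09, adjusted p = 3e-31). The formyl peptide receptor *Fpr1* had 149.6, 128.5 and 152.05 against 48.4, 46.5 and 37.7 (1.68 ± 0.40). The complement receptors moved the other way, *C5ar1* with 2602, 2956 and 2725 against 5889, 5808 and 5775 (-1.08 ± 0.08) and *C3ar1* lower (-2.83 ± 0.42). Integrin genes divided by alpha chain. *Itgal*, which encodes the LFA-1 alpha chain, had 255.02, 257.8 and 234.7 against 44.3, 48.03 and 68.02 (2.22 ± 0.17), while *Itgam* (Mac-1) was lower, with 1701, 1878 and 1629 against 3451, 4032 and 3935, and *Itgax* (CD11c) lower (-2.16 ± 0.23). The common partner *Itgb2* was no DEG (-0.55 ± 0.05), and 3 of the 21 genes of that list were higher and 5 lower. Of 36 paired and pattern-recognition receptors 8 were higher and 3 lower, from *Tlr1* (2.46 ± 0.42), *Cd300ld* (1.32 ± 0.17) and the inhibitory *Pirb* (1.06 ± 0.14) to *Clec4d* (-1.35 ± 0.09) and *Cd33* (-1.26 ± 0.13).

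Chemokine and cytokine genes were lower in 10 of 26 (38.5%) and higher in 1. *Ccl6* had 2362, 2218 and 2556 normalized counts in GCSF-OHT and 20390.3, 22274 and 21742 in IL3-OHT (log2 fold change -3.17 ± 0.07, adjusted p = 7.4e-70). *Ccl9* had 489.9, 531.9 and 482.5 against 3437, 3897 and 3683 (-2.87 ± 0.09, adjusted p = 1.2e-55). Both are CC chemokines of myeloid cells. The neutrophil attractants *Cxcl2* (63.6, 47.8 and 57.7 against 395.8, 471.8 and 477.8, -2.97 ± 0.17) and *Cxcl3* (-3.43 ± 0.25) fell on the same side. *Csf1*, the macrophage growth factor, was the higher one, with 93.8, 107.6 and 81.1 against 40.1, 48.8 and 45.1 (1.05 ± 0.21).

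NF-kB factors and feedback genes were divided, 4 of 18 higher and 4 lower. *Nfkbie* (0.92 ± 0.17), *Rel* (0.64 ± 0.10), *Relb* (0.62 ± 0.10) and *Birc3* (0.62 ± 0.09) were higher by small amounts and *Nfkbia*, the canonical inhibitor and feedback target, was lower, with 1751, 1758 and 1579.7 against 3259, 3372 and 3244 (-0.96 ± 0.07). Leukotriene synthesis split at consecutive steps. *Alox5*, the lipoxygenase that makes leukotriene A4, had 3333, 3315 and 3253 against 5918, 5657 and 5932 (-0.82 ± 0.04, adjusted p = 2.7e-41). *Lta4h*, the hydrolase that turns it into leukotriene B4, had 9831, 9075 and 9733 against 3173, 3000.2 and 3129 (1.62 ± 0.04, adjusted p = 6.8e-64). The prostaglandin and thromboxane synthases *Ptgs2* (-2.09 ± 0.19) and *Tbxas1* (-3.09 ± 0.51) were lower, and *Alox5ap* (0.06 ± 0.05) was no DEG. In all 3 of 17 genes of that list were higher and 4 lower.

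Interferon-stimulated genes gave the highest share of any list, 23 of 31 higher (74.2%) and 1 lower. Many were sparse. Of the 23, 13 reached a mean of 50 normalized counts in at least 1 condition and 10 did not, and a filter at a mean of 10 over all libraries left 15 higher. *Ifit1*, an RNA-binding antiviral effector, had 109.3, 81.4 and 57.7 against 3.34, 10.8 and 8.20 (log2 fold change 3.38 ± 0.56, adjusted p = 1.5e-07). *Irf7*, the factor that amplifies interferon expression, had 224.02, 203.96 and 181.3 against 55.1, 42.6 and 50.8 (2.02 ± 0.25). *Xaf1* had 129.4, 124.02 and 90.6 against 26.7, 43.4 and 38.5 (1.65 ± 0.29) and *Usp18* was higher by 1.32 ± 0.37. The GCSF-OHT libraries of these genes spread widely but did not reach the IL3-OHT range. *Bst2*, tetherin, was the lower one, with 482.9, 456.5 and 516.8 against 901.1, 795.6 and 754.8 (-0.75 ± 0.08). The abundant *Ifitm3* (-0.35 ± 0.06) was no DEG. The interferon response motif shown above in the *Ifit1* promoter was in 15 of the 23 tested list genes that had a window. It was in 3.55% of the genes with a window that were no DEG. This share describes the list and not the difference at 48h, and was not tested. No interferon type I gene was among the list, and the summed list level was 12293 to 12849 in GCSF-OHT and 10184 to 10564 in IL3-OHT.

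Antigen presentation genes were divided. Of 17 tested 7 were higher in GCSF-OHT, 4 lower and 6 no DEGs. At 12h 8 of them were higher and 1 lower, and at 40h, 56h and 88h 2 were higher and 5, 6 and 7 lower. *H2-K1* had 13563, 12218 and 12684 normalized counts against 7892, 7502 and 7157 (0.77 ± 0.06), the immunoproteasome subunit *Psmb9* had 621.7, 573.04 and 586.3 against 313.2, 300.6 and 298.3 (0.96 ± 0.09), and the loading factor *Tapbp* (0.88 ± 0.08) and the class I transactivator *Nlrc5* (0.88 ± 0.08) were higher with them, as were *Tap1*, *Psmb8* and *Psmb10*. *H2-K1* shares long stretches with other class I genes, so its counts depend on how reads were divided. The 4 lower genes were *Cd74*, *Ciita*, *H2-DMb1* and *Cd80*, the first 3 of them of class II presentation, all with means under 64 in either condition. The call of *H2-DMb1* (-0.60 ± 0.19) was lost when GCSF-OHT replicate 1 was left out (-0.53), and that of *Ciita* (-1.66 ± 0.60) when GCSF-OHT replicate 3 was (-1.02, adjusted p = 0.25) and with edgeR (adjusted p = 0.068). *B2m* was no DEG (0.04 ± 0.05).

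Some mitosis and DNA replication genes were higher in GCSF-OHT by small amounts, and most were no DEGs. Of 40 mitosis genes 15 were higher (37.5%), 0 lower and 25 no DEGs, and of 44 DNA replication genes 8 were higher, 0 lower and 36 no DEGs. Without GCSF-OHT replicate 2 of 48h the count of higher DNA replication genes was 13. The mitosis genes that were higher numbered 36 at 12h, 16 at 40h, 15 at 56h and 36 at 88h. *Mki67*, the proliferation antigen, had 13549, 12889 and 13130.3 normalized counts against 6925, 6960.2 and 7977 (0.86 ± 0.09, adjusted p = 9.3e-16). The spindle motor *Kif11* had 2522, 2428 and 2467 against 1342, 1322 and 1318 (0.90 ± 0.08) and the primase *Prim1* was higher by 0.87 ± 0.08. *Pcna* (0.42 ± 0.05) and *Ccna2* (0.33 ± 0.08) stayed under the threshold of size. Some G1 regulators differed by more, but 18 of the 25 tested were no DEGs. The median log2 fold change of that list was 0.19, against 0.47 for mitosis and 0.29 for DNA replication genes. *E2f2* had 2026, 1783 and 1779 against 357.4, 333.1 and 408.9 (2.34 ± 0.08, adjusted p = 8.2e-50), and the INK4 inhibitors *Cdkn2c* (1.50 ± 0.10) and *Cdkn2d* (1.19 ± 0.08) were higher. *Ccnd2*, cyclin D2, had 4612, 4832 and 4294 against 16249.9, 17861 and 17960.2 (-1.92 ± 0.05, adjusted p = 7.8e-63) and *Cdkn1a*, p21, was lower (-0.74 ± 0.07). That list gave 5 higher and 2 lower of 25.

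Growth and metabolic genes were lower in GCSF-OHT more often than higher. Of 47 genes of the Myc network and ribosome biogenesis 14 were lower (29.8%) and 2 higher. Most of these differences lay near the threshold of size, and 7 were lower without GCSF-OHT replicate 2 and 9 without IL3-OHT replicate 1. Lower genes of this list numbered 23 at 12h, but 1 at 40h, 2 at 56h and 3 at 88h. *Myc* had 3042, 3223 and 2996 normalized counts against 5826, 5409 and 5812 (-0.88 ± 0.07, adjusted p = 2e-22), and *Npm1*, nucleophosmin, had 7882, 8575 and 8779 against 13959, 14639 and 14122 (-0.76 ± 0.07). The 2 higher genes encode antagonists of Myc, *Mxd1* with 2656, 2523 and 2268 against 958.7, 873.03 and 882.6 (1.45 ± 0.09) and *Mxd3* (1.37 ± 0.13). Of 30 glycolysis and hypoxia-responsive genes 12 were lower and 3 higher. *Pgk1*, phosphoglycerate kinase, had 27614, 32026 and 23417 against 46802, 51007 and 47392 (-0.82 ± 0.11), and *Car9*, a marker of hypoxia, was lower (-1.02 ± 0.15), while the regulators of phosphofructokinase *Pfkfb3* (0.81 ± 0.06) and *Pfkfb4* (1.07 ± 0.09) were higher. *Gapdh* (-0.49 ± 0.09) was no DEG. The ATF4 list gave 6 of 31 lower, *Aldh1l2* (-1.97 ± 0.24) and *Trib3* (-0.87 ± 0.10) among them, and 1 higher. Of 29 cholesterol genes 3 were lower, including the efflux transporters *Abcg1* (2155, 2460.2 and 1994 against 5557, 5998 and 6107, -1.42 ± 0.06) and *Abca1* (-1.01 ± 0.20), and 0 were higher. The share of 10.3% lower is near the 7.74% of all genes.

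The survival genes of the BCL2 family had 5 of 16 members lower and 1 higher. *Bcl2l1*, which encodes BCL-XL, had 753.4, 757.6 and 657.9 normalized counts against 2767, 2847 and 2891 (-1.97 ± 0.07, adjusted p = 2.8e-52). The A1 genes were nearly absent in GCSF-OHT, with 3.10, 2.99 and 10.2 against 192.1, 193.7 and 166.4 for *Bcl2a1d* (-5.02 ± 0.54) and similar values for *Bcl2a1a* (-5.35 ± 0.46) and *Bcl2a1b* (-4.90 ± 0.55). These 3 are near-identical copies on chromosome 9, so reads may be divided among them and they are best read as 1 locus. *Bmf*, a pro-apoptotic gene of the BH3-only class, was higher, with 176.7, 189.02 and 173.98 against 70.98, 109.2 and 96.7 (0.98 ± 0.12), and *Mcl1* (-0.22 ± 0.08) was no DEG. Among lysosomal genes 7 of 43 were lower and 2 higher, with *Atp6v0d2* (-2.05 ± 0.16) and *Ctsl* (-1.28 ± 0.06) against *Ctse* (1.71 ± 0.11). *Lmna*, lamin A, had 694.5, 696.3 and 692.99 against 2732, 2543 and 2586 (-1.91 ± 0.07, adjusted p = 3.4e-47), the 1 lower gene of 13 of the nuclear envelope, where *Syne1* (1.00 ± 0.08), *Sun2* (0.72 ± 0.05) and *Syne2* (0.60 ± 0.10) were higher, the last of them only just, at 0.54 without IL3-OHT replicate 1. Of 17 iron genes the exporter *Slc40a1* was higher (0.83 ± 0.05) and the importer *Slc39a14* lower (-2.21 ± 0.10).

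How the difference at 48h relates to the one before OHT was asked with the 0h libraries, which share no sample with those of 48h. At 0h 2261 genes (13.0%) were higher in GCSF and 3600 (20.7%) lower than in IL3, so fewer genes were DEGs at 48h. Of the 1031 higher genes at 48h, 612 were also higher at 0h and 63 had been lower. Of the 1347 lower genes, 894 were also lower at 0h and 20 had been higher. Taken from the 0h side, 27.1% of the higher and 24.8% of the lower DEGs at 0h were DEGs in the same direction at 48h. The interaction, which is the difference at 48h minus that at 0h, met the DEG rule upward in 2409 genes (13.8%) and downward in 1663 (9.55%).

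Cell cycle, ERK-responsive and glycolytic genes were among those that passed that interaction test. In 39 of 44 DNA replication and 36 of 40 mitosis genes the excess in GCSF was smaller at 48h, and 40 of the 44 and 38 of the 40 had been higher at 0h. From 0h to 48h 2234 genes (12.8%) rose and 2966 fell in IL3, and 1336 (7.67%) rose and 862 (4.95%) fell in GCSF. Of the mitosis genes 36 rose in IL3 and 0 in GCSF. The mean of *Mki67* went from 3545 to 7288 in IL3 between these times and from 11536 to 13189 in GCSF. In the ERK list the difference moved upward in 20 of 36 genes, and 32 of the 36 had been lower at 0h. *Fosb* had a log2 difference of -8.05 at 0h and of -2.49 at 48h (interaction 5.57 ± 0.26, adjusted p = 2.9e-39), and *Lmna* of -4.89 and -1.91 (interaction 2.98 ± 0.10). The 0h cells had not been trypsinized, and the levels of *Fosb* on either side of the first use of trypsin are given above. Of 30 glycolysis genes 20 moved upward, and 19 rose from 0h to 48h in GCSF against 7 in IL3.

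**Figure D4:**
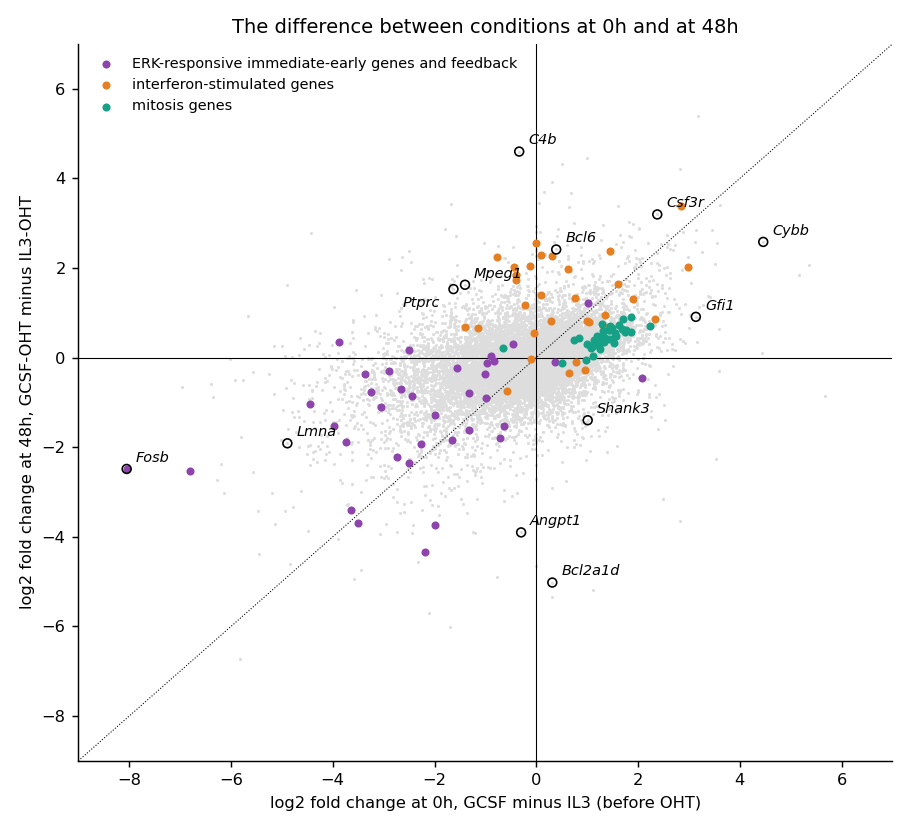
Log2 fold change of GCSF over IL3 at 0h on the x axis and at 48h on the y axis for 17414 genes in grey, with 3 lists in colour and named genes circled. The dotted line marks equal differences. Mitosis genes lie mostly to the right and between -0.12 and 0.90 at 48h, ERK-responsive genes mostly in the lower left and interferon-stimulated genes mostly above 0.

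Some DEGs at 48h were no DEGs at 0h, although smaller differences could be present there, as the 0h values of *Bcl6* below show. *C4b* had 36.97, 53.1 and 31.7 normalized counts in GCSF 0h and 69.3, 41.9 and 43.7 in IL3 0h (-0.34), and its excess appeared after OHT (interaction 4.93 ± 0.31, adjusted p = 7.2e-29). Its change from 0h to 48h was 4.45 in GCSF and -0.48 in IL3. *Bcl6* had 913.97, 878.3 and 831.3 against 685.6, 679.2 and 634.6 at 0h and declined in IL3 only past the DEG rule (-1.80 in IL3, 0.23 in GCSF, interaction 2.02 ± 0.13). *Irf7* (2.46 ± 0.35), *Cxcr2* (1.96 ± 0.13), *Mxd1* (1.97 ± 0.12) and the orphan receptor *Gpr82* (2.85 ± 0.43) gave interactions in the same direction. Among lower genes, *Bcl2a1d* had at most 1 read in any 0h library and a mean of 184.03 in IL3-OHT at 48h (interaction -5.34 ± 0.76). *Bcl2a1a* (-5.67 ± 0.66), *Angpt1* (-3.60 ± 0.55), the urokinase gene *Plau* (-1.89 ± 0.13) and *Atp6v0d2* (-1.97 ± 0.22) also gave downward interactions, of which *Plau* declined after OHT in both conditions (-0.80 in IL3, -2.69 in GCSF) and the others rose in IL3.

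A few genes turned from one side to the other, and 63 of the higher and 20 of the lower DEGs at 48h had been DEGs in the opposite direction. *Mpeg1*, which encodes the pore-forming perforin-2 of phagocytes, had 127.5, 100.05 and 114.6 normalized counts in GCSF and 289.2, 295.6 and 320.2 in IL3 at 0h (-1.40), and 904.6, 775.5 and 850.9 against 263.9, 316.1 and 241.8 at 48h (1.63, interaction 3.03 ± 0.16, adjusted p = 5.3e-34). *Gcnt2* turned from -1.70 to 0.94 (interaction 2.63 ± 0.13) and *Ampd3* from -1.61 to 1.71 (interaction 3.32 ± 0.36). *Ptprc* (3.16 ± 0.35), *Siglece* (2.78 ± 0.40) and *9930111J21Rik2* (3.86 ± 0.54) turned as well, but at 0h they were counted at or near the floor in GCSF and at no more than 18 normalized counts in IL3. In the opposite sense, the synaptic scaffold gene *Shank3* had 1954, 1434 and 1429.6 against 870.1, 759.96 and 739.8 at 0h and 82.2, 132.99 and 100.1 against 297.3, 225.4 and 304.9 at 48h (interaction -2.41 ± 0.31). *Inka1* (-2.51 ± 0.27), *Dctd* (-2.28 ± 0.20), *Pald1* (-2.19 ± 0.32), *Tifab* (-1.73 ± 0.15) and *Slc29a2* (-1.78 ± 0.28) did the same.

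**Figure D5:**
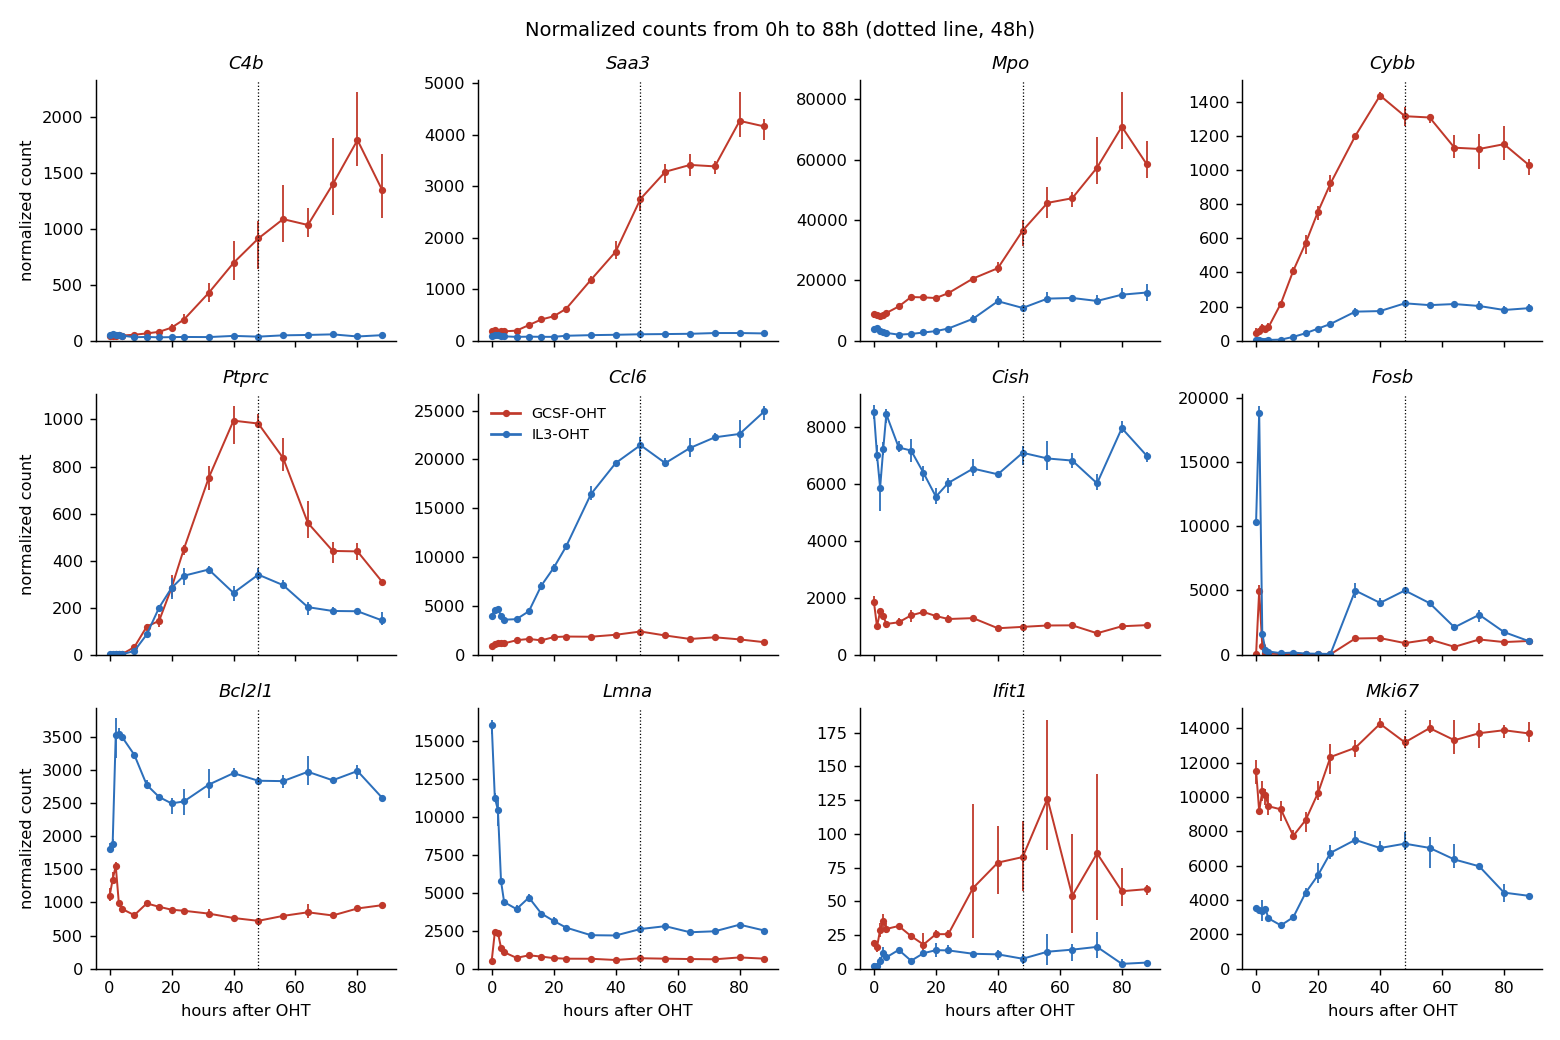
Mean normalized count against hours after OHT from 0h to 88h in GCSF-OHT (red) and IL3-OHT (blue) for 12 genes, with vertical lines from the lowest to the highest library (3 per point) and a dotted line at 48h. *C4b* and *Saa3* rise in GCSF-OHT far above IL3-OHT, where the mean of *Saa3* goes from 93.4 at 0h to 141.1 at 88h, *Ptprc* is highest at 40h and 48h in GCSF-OHT, and *Ccl6* rises in IL3-OHT.

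The time points on either side had more DEGs than 48h. At 40h 1169 genes were higher (6.71%) and 1677 lower (9.63%), and at 56h 1311 (7.53%) and 1556 (8.94%). Of the higher genes at 48h 612 (59.4%) were also higher at 40h and 655 (63.5%) at 56h, which were 52.4% and 50.0% of the higher genes at those times. Of the lower genes 914 (67.9%) and 940 (69.8%) were also lower, 54.5% and 60.4% of the lower genes there. The difference at 48h exceeded that at 40h in 261 genes (1.50%) and fell short of it in 0.764% of genes. Against 56h the shares were 0.764% upward and 0.769%, or 134 genes, downward. The last count was 85 without IL3-OHT 48h replicate 2, and without replicate 2 of every group the pair was 38 and 24. The contrasts with 40h and 56h share the 48h libraries, so a shift in these libraries moves both together. Few genes stood apart from both neighbours, 43 upward (0.247%) and 31 downward (0.178%). *Egr1* was among the latter, with log2 differences of -2.34 at 40h, -3.69 at 48h and -2.63 at 56h. Medium was partly exchanged and OHT renewed at 40h, and the part of this in the contrasts with both neighbours was not tested.

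Ribosome biogenesis and sterol synthesis genes were among those that differed from both neighbours. Of the Myc and ribosome biogenesis list 23 genes were lower at 12h, 1 at 40h, 14 at 48h, 2 at 56h and 3 at 88h, and 4 of its 47 members stood apart from both neighbours downward. The count of 14 at 48h fell to 7 without GCSF-OHT replicate 2. *Gnl3* and *Wdr43*, nucleolar proteins named after their values were seen, are examples. The log2 difference of *Gnl3* was -0.05 at 40h, -0.75 at 48h, then -0.11 at 56h. For *Wdr43* the values at these times were 0.00, -0.72 and -0.09 (difference at 48h minus that at 40h -0.69 ± 0.13 for *Gnl3* and -0.73 ± 0.10 for *Wdr43*, adjusted p = 3.3e-05 and 1.6e-08). In the cholesterol list 5 of 29 stood apart upward. *Fdps*, farnesyl diphosphate synthase, also named after its values were seen, had mean normalized counts of 1404, 1509.5 and 1753 in GCSF-OHT at 40h, 48h and 56h. In IL3-OHT these were 2001, 1368 and 3049. Its difference at 48h exceeded that at 40h by 0.65 ± 0.13 (adjusted p = 0.0002) and that at 56h by 0.94 ± 0.13 (adjusted p = 1.9e-07). Without GCSF-OHT replicate 1 the first of these was 0.57, under the threshold of size. Here the IL3-OHT mean was lower at 48h than at either neighbour while the GCSF-OHT mean lay between them.

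At 12h and 88h the counts of DEGs were again above that of 48h. At 12h 1554 genes were higher (8.92%) and 1457 lower (8.37%), and at 88h 2007 (11.5%) and 2314 (13.3%). Of the higher genes at 48h 709 (68.8%) were also higher at 12h and 739 (71.7%) at 88h, shares above those at 40h and 56h, and made up 45.6% and 36.8% of the higher genes at these times. Of the lower genes 763 (56.6%) and 924 (68.6%) were also lower, 52.4% and 39.9% of the lower genes there. Relative to 12h, the difference at 48h was higher in 1.13% of genes and lower in 570 (3.27%), and relative to 88h it was higher in 632 (3.63%) and lower in 773 (4.44%). *Ampd3* had a log2 difference of -0.78 at 12h and 1.71 at 48h (interaction 2.50 ± 0.36, adjusted p = 2e-08), and *Sirpb1c*, a signal-regulatory protein of a multigene family, of -0.72 and 0.58 (interaction 1.30 ± 0.16). *Mill2* went from 0.78 to -0.60 (interaction -1.37 ± 0.27). The differences of *Sirpb1c* and *Mill2* at 48h lay at the threshold, at 0.49 without IL3-OHT replicate 1 and -0.41 without GCSF-OHT replicate 1. *Trib1*, a pseudokinase that degrades C/EBP alpha, had 1049 in GCSF-OHT and 2046 in IL3-OHT at 48h (-0.97) and turned to 0.61 at 88h (48h minus 88h -1.57 ± 0.12, adjusted p = 6.1e-21). The GCSF receptor gene *Csf3r*, by contrast, kept differences of 3.66 at 12h, 3.20 at 48h and 3.12 at 88h.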

How the data were processed

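The 165 RNA-seq libraries of PUER cells had been quantified with Salmon on GRCm38, and the deposited table holds a signal per gene, counts that the authors divided by DESeq2 median-of-ratios size factors. Dividing each library by its smallest value above 0 gave whole reads for 100% of values (relative tolerance 1e-06). Of 36255 genes, 17414 had a normalized count of at least 5 in 1 or more libraries. Their log2(normalized count + 1) was fitted with limma 3.58.1 (R 4.3.3), with 1 mean for each condition and time over 159 libraries in 54 groups, leaving out IL3-OHT 96h and 144h. The study excluded these times because they stood apart from their neighbours, which it says could be a transient effect of the preceding OHT renewal. A fold change on this scale understates the change of low genes. Values after ± are standard errors, and p-values were adjusted by Benjamini-Hochberg over all genes tested. A difference of differences was tested as a contrast of the same fit. Cytokine, OHT dose and prior culture were not separable by any term.

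Named genes were the 12 DEGs with the highest and the 12 with the lowest fold change (mean of at least 100), up to 4 DEGs in each direction (mean of at least 50) and 3 abundant other members for each list, the leading genes of the interactions, and lineage markers. Genes outside this rule were chosen after their values were seen. Some genes that the rule names are not reported here. The comparison and the lists were chosen with earlier results of these data known. Alternatives were other pseudocounts, filters and scaling, fits of only the groups compared, a replicate block, left-out libraries, and edgeR 4.0.16 and DESeq2 1.42.0 on the recovered reads. The fit was tested on simulated data. Intervals of counting were not needed beyond the floor of 3 reads, which covers counting error only. Promoter windows came from RefSeq.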

Additional observations from a re-analysis of the deposited data

Results flagged for a closer look

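In a minority of genes the difference between GCSF-OHT and IL3-OHT at 48h was called different from that at another time. The test was the contrast of both differences in limma, and the shares below are of genes for which the difference at 48h was higher or lower. Against 0h the difference at 48h was higher in 13.8% of genes and lower in 9.55%, against 12h in 1.13% and 3.27%, against 40h in 1.50% and 0.764%, against 56h in 0.764% and 0.769%, and against 88h in 3.63% and 4.44%.

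Among the named genes the log2 difference at 48h exceeded that at 0h by 3.86 for *9930111J21Rik2*, 3.32 for *Ampd3*, 2.02 for *Bcl6*, 4.93 for *C4b*, 1.96 for *Cxcr2*, 5.57 for *Fosb*, 2.63 for *Gcnt2*, 2.85 for *Gpr82*, 2.46 for *Irf7*, 2.98 for *Lmna*, 3.03 for *Mpeg1*, 1.97 for *Mxd1*, 3.16 for *Ptprc* and 2.78 for *Siglece*. Below that at 0h, the shifts were -3.60 for *Angpt1*, -1.97 for *Atp6v0d2*, -5.67 for *Bcl2a1a*, -5.34 for *Bcl2a1d*, -2.28 for *Dctd*, -2.51 for *Inka1*, -2.19 for *Pald1*, -1.89 for *Plau*, -2.41 for *Shank3*, -1.78 for *Slc29a2* and -1.73 for *Tifab*. Those of *Bcl2a1a*, *Bcl2a1d*, *Ptprc*, *Siglece* and *9930111J21Rik2* rest on 0h libraries with few reads. Relative to 12h the shifts were 2.50 for *Ampd3*, -1.37 for *Mill2* and 1.30 for *Sirpb1c*, relative to 40h 0.65 for *Fdps*, -0.69 for *Gnl3* and -0.73 for *Wdr43*, relative to 56h 0.94 for *Fdps* and relative to 88h -1.57 for *Trib1*. No group of 3 libraries was tested for outlying samples.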

How the results depend on the processing

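The counts of DEGs at 48h kept within 1.5 times of the main ones under every alternative run. Higher genes numbered 1094 with edgeR and 1012 with DESeq2, and lower genes 1384 and 1353. Leaving out 1 of the 6 libraries at 48h gave 943 to 1027 higher and 1213 to 1329 lower genes. Replicate numbers did not pair the samples, since same-numbered libraries of the conditions had deviations that correlated at 0.024, 0.038 and 0.0079 across genes. With the replicate block 1028 genes were higher and 1347 lower. For the difference at 48h minus that at 56h, 221 genes were downward with edgeR. Over the settings that leave out 1 library at 48h or 1 replicate of every group, that contrast had 38 to 160 genes upward and 24 to 150 downward, the lowest of each without replicate 2 of every group. The cause was not tested. Among list counts 43 of 1188 values in 15 of 66 results moved by over 1.5 times. No named gene changed direction where the main fit or the alternative called it a DEG. Changes of sign in genes called by neither were not looked for. At 48h 11 named genes were no longer DEGs under 1 or more alternatives (61 of 3704 values), namely *Cd36*, *Ciita*, *Csf1r*, *Gm7332*, *Gp1bb*, *H2-DMb1*, *Mill2*, *Rel*, *Siglece*, *Sirpb1c* and *Syne2*, and *Itgb2* became one without GCSF-OHT replicate 2. Of 33 named contrasts between times that of *Fdps* with 40h was lost in 2 of 594 values. Genes at a few reads, the sterol and ribosome biogenesis contrasts with 40h and 56h, and differences near the size threshold are limited by depth and by 3 libraries a group.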
